A study of Mus musculus with 6 samples.

Results

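The cytokine TSLP and 9 receptor subunits that carry type 2 and related cytokine signals in skin were examined in RNA-Seq libraries of whole mouse skin. The 10 genes are *Tslp*, *Crlf2*, *Il4ra*, *Il13ra1*, *Osmr*, *Il6ra*, *Il31ra*, *Il2rg*, *Il7r* and *Il20rb*, out of 26579 genes with at least 1 count. They were chosen by name, with earlier results of these data known. RNA came from dorsal neck skin biopsies of female littermates at 33 days of age, 3 of them wild type and 3 YAP2-5SA-∆C. YAP2-5SA-∆C is a mildly active mutant of the transcriptional co-activator YAP that is expressed in basal keratinocytes carrying keratins 5 and 14, and the transgenic animals were taken when the outward skin changes, with a thickened epidermis, first became visible. Nothing else distinguishes the groups in the labels, each library is 1 mouse, and the YAP2-5SA-∆C group is called transgenic below. The comparison addresses how the skin transcriptome differs when YAP is active in the epidermis.

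TSLP is made mainly by epithelial cells, keratinocytes among them, and acts on dendritic cells, innate lymphoid cells and T cells through a receptor of CRLF2 and the IL-7 receptor alpha chain encoded by *Il7r*. The other subunits also work in pairs. IL4RA joins the common gamma chain encoded by *Il2rg* to bind IL-4, or IL13RA1 to bind IL-4 and IL-13. OSMR joins gp130 (*Il6st*) to bind oncostatin M, or IL31RA to bind the itch cytokine IL-31. IL6RA joins gp130 to bind IL-6, and IL20RB joins IL20RA or IL22RA1 to bind IL-20 and IL-24. These receptors signal through JAK kinases and STAT factors.

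Promoter sequences of 9 of the 10 genes were found in RefSeq (GRCm38.p6, 250 bases before to 50 bases after the RefSeq gene start), and 4 short stretches are shown because they hold the only matches, in these 9 promoters, to the motifs searched. The capitals mark the match, and each stretch is read 5′ to 3′ on the strand of its gene, which is the minus strand for all 4.
Il2rg, chrX:101268479-101268504, TEAD motif: aaggtggctgGGAATGatggtgtgtg
Osmr, chr15:6874294-6874320, AP-1 motif: gccccgtagtTGATTCAtagctggggc
Il31ra, chr13:112580835-112580863, STAT motif: cctgaagggtTTCCAGGAAattgtgataa
Il7r, chr15:9530000-9530028, STAT motif: gttcaggagcTTCAGGGAAtaccaagatg
The motifs were CATTCC for TEAD factors, the DNA-binding partners of YAP, TGANTCA for AP-1, TTCNNNGAA for STAT factors and TTCNNNNGAA for STAT6, each searched on both strands. TEAD matches were present in 1 of the 9 promoters and in 14.7% of all 32851 promoters, AP-1 matches in 1 and in 7.81%, STAT matches in 2 and in 8.30%, and STAT6 matches in 0 and in 6.95%. A match is a run of letters and not a binding site. The RefSeq start lay 13698 bases inside the GENCODE gene for *Il31ra*, 656 for *Osmr* and 300 for *Il7r*, and at the same base (0) for *Il2rg*, so that for the first 3 the window lies at another start than that of the positions given below.

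Read depth was 11225705 to 19505036 counts per library, with the lowest depth in wild type replicate 3. All 10 genes were among the 15102 genes tested, those whose CPM (counts scaled to the library total) was 1 or more in 3 or more libraries. Transcripts of basal keratinocytes were high in every library, with 3538 to 7419 CPM summed over 6 markers, and skeletal muscle transcripts varied from 789 to 4716 CPM over 3 markers and overlapped between the genotypes. Transgenic replicate 2 stood apart in its hair follicle markers, which summed to 757 CPM against 3586 CPM or more in the other libraries. Without this library, 2 of the 10 genes (*Il4ra* and *Il13ra1*) were called higher by the quasi-likelihood test of edgeR, against 2.72% of all genes, and the median log2 fold change of the 10 was 0.62.

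In the edgeR fit (SE below is its standard error), all 10 genes had a higher estimate in YAP2-5SA-∆C than in wild type skin, by 0.50 to 1.02 on the log2 scale. With all libraries their median log2 fold change was 0.62, whereas that of all 15102 genes was -0.01, and 47.6% of all genes had a positive value. Only *Il13ra1* had an FDR under 0.05 by the quasi-likelihood test, in which 1.44% of all genes were called higher and 0.464% lower. At an unadjusted p under 0.05, 8 of the 10 were higher, against 13.3% of all genes. The 3 transgenic libraries lay above the 3 wild type libraries for 9 of the 10 genes, and for 15.5% of all genes. Because the 10 genes were chosen with earlier results of these data known, these shares describe them and are not a test. *Il31ra* was the gene whose groups overlapped. The number of calls depended on the test. The likelihood-ratio test of edgeR called 6 genes higher (*Il4ra*, *Il13ra1*, *Osmr*, *Il2rg*, *Il7r* and *Il20rb*, against 5.52% of all genes), DESeq2 called 6 (with *Il6ra* in place of *Il7r*, against 6.34%), and voom called *Il13ra1* alone (against 1.23%). When wild type replicate 2 or 3 or transgenic replicate 3 was dropped, the quasi-likelihood test called 0 genes of all those tested (2725, 2844 and 3692 had an unadjusted p under 0.05), so every call given below was lost in these 3 fits. In bulk skin, more cells that carry a transcript and more of it per cell cannot be told apart.

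**Figure D1:**
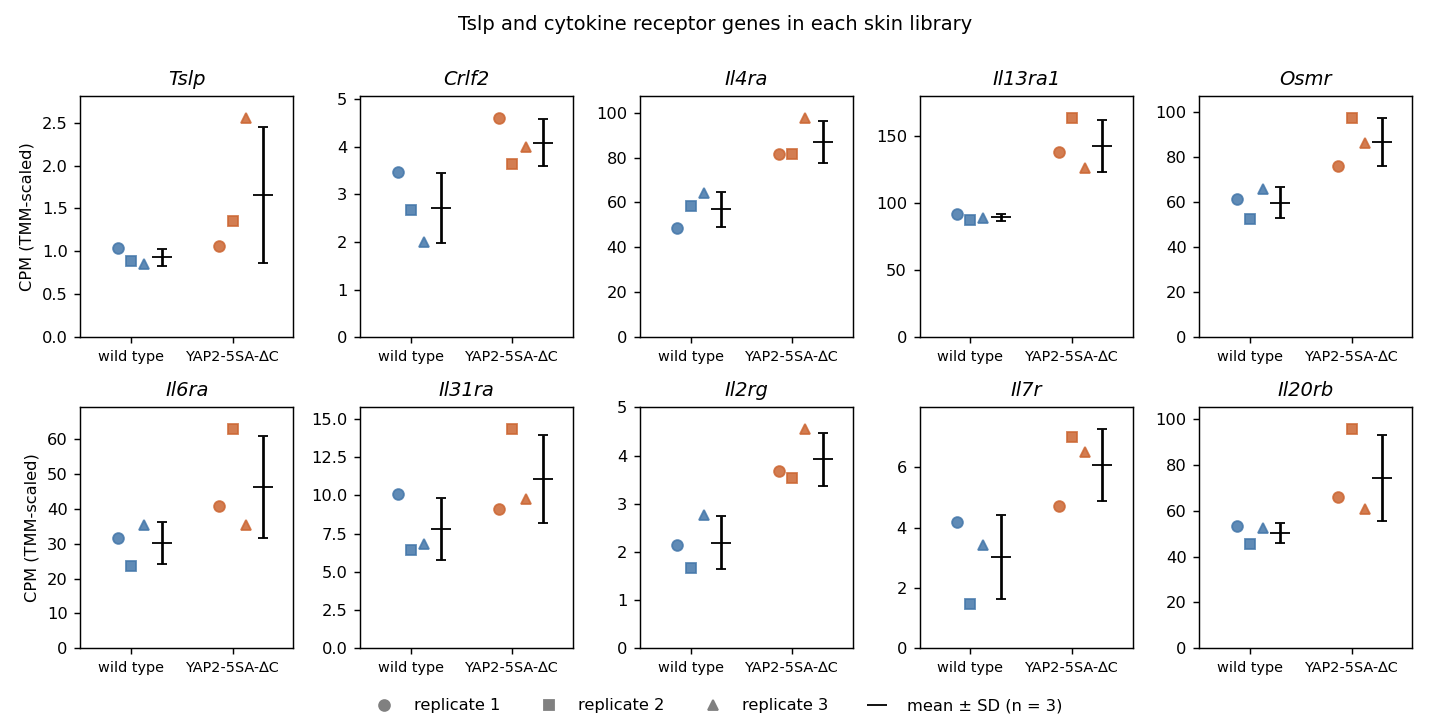
CPM (vertical axis, scaled with TMM) of the 10 genes in each library, with wild type in blue and YAP2-5SA-∆C in orange, symbols for the replicates, and black marks for mean ± SD (n = 3). The YAP2-5SA-∆C points lie above the wild type points in every panel except that of *Il31ra*, and by a narrow margin for *Tslp* and *Il6ra*.

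*Tslp* (ENSMUSG00000024379, chromosome 18 of GRCm38 from 32815383 to 32819797) was the gene with the fewest reads. It had 19, 17 and 9 counts in wild type replicates 1, 2 and 3, and 19, 23 and 41 counts in transgenic replicates 1, 2 and 3. These are 1.04, 0.890 and 0.856 CPM in wild type and 1.06, 1.35 and 2.56 CPM in transgenic skin. The high mean of the transgenic group came mostly from replicate 3, and transgenic replicate 1 was at the level of wild type replicate 1. The log2 fold change was 0.81 (SE 0.37) with all libraries and 0.36 without transgenic replicate 3, and the FDR by the quasi-likelihood test was 0.218, which did not pass. On CPM without TMM scaling the groups overlapped, with a highest wild type value of 1.090 and a lowest transgenic value of 1.087.

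The ligand-specific chain of the TSLP receptor, *Crlf2* (ENSMUSG00000033467, chromosome 5 from 109554709 to 109558993), had 3.46, 2.67 and 2.00 CPM in wild type and 4.62, 3.65 and 3.99 CPM in transgenic replicates 1 to 3, from 21 to 83 counts per library. Its groups did not overlap, but the gap between wild type replicate 1 and transgenic replicate 2 was small, and the log2 fold change of 0.57 (SE 0.22) had an FDR of 0.153. The shared chain *Il7r* (ENSMUSG00000003882, chromosome 15 from 9505788 to 9530176), whose promoter holds a STAT match shown above, had 4.18, 1.47 and 3.42 CPM in wild type and 4.73, 7.00 and 6.49 CPM in transgenic skin. This was the largest estimate of the 10, 1.02 (SE 0.36), but wild type replicate 2 was far below the other wild type libraries, the FDR was 0.137, and without that library the estimate was 0.66. Thus neither *Tslp* nor either chain of its receptor passed the quasi-likelihood test.

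*Il13ra1* (ENSMUSG00000017057, chromosome X from 36112110 to 36171259), the chain that turns IL4RA into a receptor for IL-13, rose in transgenic skin. It had 92.1, 87.2 and 89.2 CPM in wild type and 138, 164 and 126 CPM in transgenic replicates 1 to 3. The wild type libraries lay within a few CPM of each other, and the lowest transgenic library was well above them. In the quasi-likelihood fit the log2 fold change was 0.67 (SE 0.10), a fold of 1.59, and edgeR gave an FDR of 0.0398. The estimate was 0.58 to 0.76 over the fits with 1 library left out, and the FDR was 0.0102 without transgenic replicate 2 and up to 0.178 without any other single library, none of which kept the call.

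*Il4ra* (ENSMUSG00000030748, chromosome 7 from 125552120 to 125579474), the chain shared by both IL-4 receptors, had 48.5, 58.2 and 64.1 CPM in wild type and 81.5, 81.6 and 97.8 CPM in transgenic skin. Its groups were clearly apart, and the log2 fold change was 0.61 (SE 0.12), with an FDR of 0.0530, just above the threshold. Without transgenic replicate 2 the FDR was 0.0379. The common gamma chain *Il2rg* (ENSMUSG00000031304, chromosome X from 101264378 to 101268255), whose promoter holds the TEAD match, was low, with 2.14, 1.67 and 2.76 CPM in wild type and 3.67, 3.53 and 4.56 CPM in transgenic skin. The transgenic values were again all above the wild type values, and the log2 fold change of 0.86 (SE 0.22) had an FDR of 0.0706.

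The oncostatin M and IL-6 receptor chains gave smaller or less even differences. *Osmr* (ENSMUSG00000022146, chromosome 15 from 6813577 to 6874969) had 61.3, 52.5 and 65.7 CPM in wild type and 76.2, 97.7 and 86.5 CPM in transgenic skin, a log2 fold change of 0.54 (SE 0.12) and an FDR of 0.0596. *Il6ra* (ENSMUSG00000027947, chromosome 3 from 89864059 to 89913196) had 31.7, 23.6 and 35.2 CPM in wild type and 40.8, 62.8 and 35.3 CPM in transgenic skin. For *Il6ra*, transgenic replicate 3 was level with wild type replicate 3 and replicate 2 was much higher than the rest. Its log2 fold change was 0.62 (SE 0.24), with an FDR of 0.157, and 0.35 without transgenic replicate 2.

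*Il31ra* (ENSMUSG00000050377, chromosome 13 from 112519898 to 112594360), the partner of OSMR in the receptor for IL-31, had 10.1, 6.44 and 6.85 CPM in wild type and 9.12, 14.4 and 9.74 CPM in transgenic skin. Wild type replicate 1 exceeded both transgenic replicates 1 and 3, and the log2 fold change of 0.50 (SE 0.24) had an FDR of 0.231 and was 0.28 without transgenic replicate 2. *Il20rb* (ENSMUSG00000044244, chromosome 9 from 100457719 to 100486788) had 53.3, 45.4 and 52.3 CPM in wild type and 66.0, 95.6 and 60.8 CPM in transgenic skin. Here too transgenic replicate 2 was far above its group, and the log2 fold change of 0.56 (SE 0.17, FDR of 0.102) was 0.35 without it. Across the 10 genes, transgenic replicate 2 was the highest library for 6, replicate 3 for 3 and replicate 1 for 1, and wild type replicate 2 was the lowest library for 7.

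**Figure D2:**
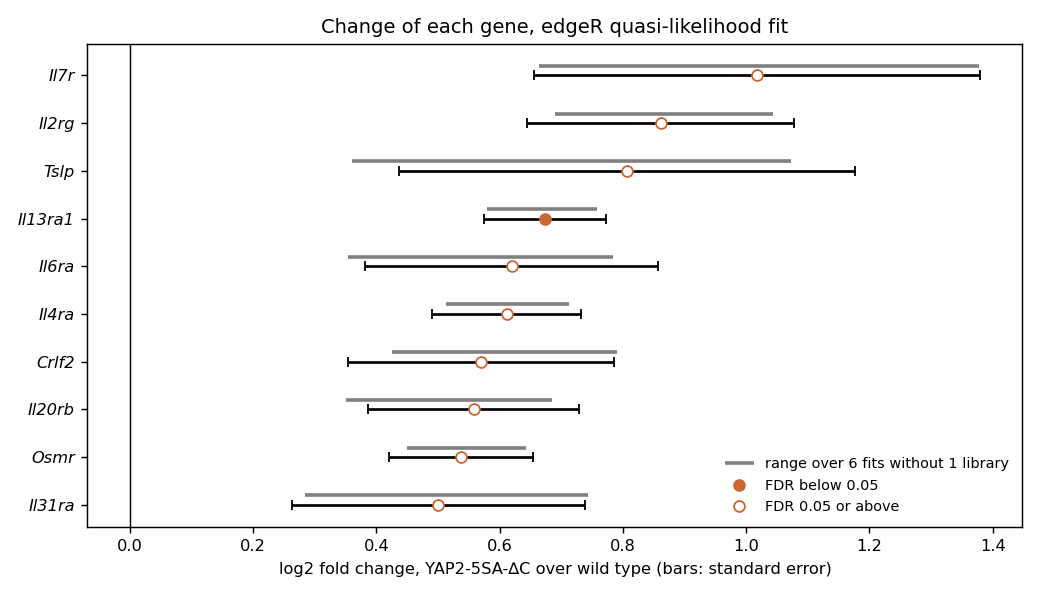
Log2 fold change of the 10 genes, YAP2-5SA-∆C over wild type (horizontal axis), from edgeR's quasi-likelihood fit, with bars of 1 standard error, a filled point for an FDR below 0.05, and a grey line for the range over the 6 fits that each leave out 1 library. All estimates and all ranges lie above 0, from 0.50 for *Il31ra* to 1.02 for *Il7r*, and *Il13ra1* has the only filled point.

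Levels were compared between genes as CPM per kb of exon. In wild type skin *Il13ra1* was highest at 24.1 ± 0.662 CPM per kb, then *Il20rb* at 12.0 ± 1.02, *Il4ra* at 9.49 ± 1.32, *Osmr* at 4.94 ± 0.557 and *Il6ra* at 3.49 ± 0.689 CPM per kb (SD, n = 3 each). The libraries of each of these 5 lay entirely above those of the next gene. Below them *Crlf2* (1.81 ± 0.491 CPM per kb), *Il31ra* (1.38 ± 0.355), *Il2rg* (0.919 ± 0.228), *Tslp* (0.699 ± 0.0754) and *Il7r* (0.648 ± 0.300) each overlapped the next in the order. Among the 10 genes, those with the most reads per length were thus *Il13ra1*, *Il20rb* and *Il4ra*, while both TSLP receptor chains and the common gamma chain were low. In transgenic skin *Il13ra1* stood at 38.5 ± 5.21 CPM per kb and *Il7r* at 1.30 ± 0.256, next to *Tslp* at 1.24 ± 0.598 CPM per kb. The order was otherwise as in wild type, but *Il20rb* overlapped *Il4ra* and *Osmr* overlapped *Il6ra*.

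**Figure D3:**
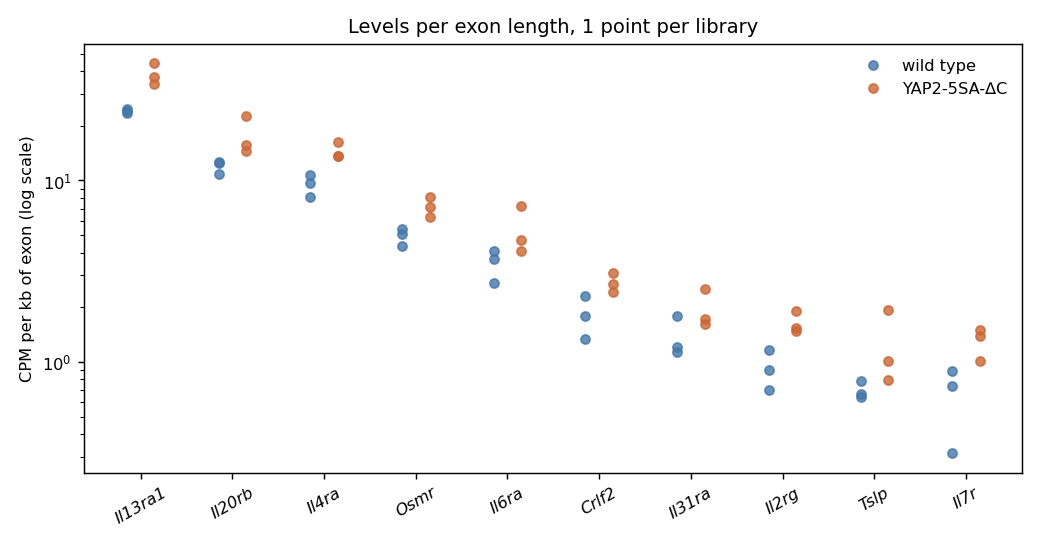
CPM per kb of exon (vertical axis, log scale) of the 10 genes in each library, in the order of their wild type means, with wild type in blue and YAP2-5SA-∆C in orange. The levels span from 24.1 CPM per kb for *Il13ra1* to 0.648 for *Il7r* in wild type skin, and the 5 genes on the right overlap their neighbours.

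The balance of subunits that form 1 receptor was tested as the log2 ratio of their reads per kb, in 9 pairs, with a two-sided exact permutation test over the 6 libraries, whose smallest possible p is 0.1. The IL-4 and IL-13 receptor pair *Il4ra* to *Il13ra1* had a log2 ratio of -1.36 ± 0.235 in wild type and -1.41 ± 0.323 in transgenic skin (SD, n = 3 each), a difference of -0.05 (SE 0.23, exact permutation p = 0.9). For the IL-31 receptor pair *Il31ra* to *Osmr* the difference was -0.03 (SE 0.23, exact permutation p = 0.9), and for the TSLP receptor pair *Crlf2* to *Il7r* it was -0.50 (SE 0.56, exact permutation p = 0.6) and -0.86 to -0.03 with any 1 library dropped, nearest to 0 without wild type replicate 2. With any 1 library dropped, *Il4ra* to *Il13ra1* ran from -0.22 to 0.10 and *Il31ra* to *Osmr* from -0.18 to 0.15. The standard errors of these 2 pairs leave room for shifts of about their own size, and that of the TSLP receptor pair is wider.

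In 2 of the 9 pairs the groups did not overlap. *Osmr* to *Il6st*, the oncostatin M receptor, had log2 ratios of -2.36, -2.39 and -2.30 in wild type and -2.24, -2.09 and -2.03 in transgenic replicates 1 to 3, a difference of 0.23 (SE 0.07). *Il20ra* to *Il20rb*, which form the IL-20 receptor of type I, had log2 ratios of -1.65, -1.71 and -1.62 in wild type and -1.47, -1.48 and -1.49 in transgenic skin, a difference of 0.18 (SE 0.03). Both ratios were higher in transgenic skin, toward the chain named first. The exact permutation p was 0.1 for each, and 0.45 after Benjamini-Hochberg adjustment over the 9 pairs. The other 4 pairs, *Il4ra* to *Il2rg*, *Il6ra* to *Il6st*, *Il7r* to *Il2rg* and *Il22ra1* to *Il20rb*, differed by -0.24 to 0.29 with overlapping groups and an exact permutation p of 0.2 to 0.4. Single libraries set much of this range, since *Il4ra* to *Il2rg* was -0.24 with all libraries and -0.04 without wild type replicate 2, *Il7r* to *Il2rg* 0.26 and -0.02 without the same library, and *Il6ra* to *Il6st* 0.29 and 0.12 without transgenic replicate 2.

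**Figure D4:**
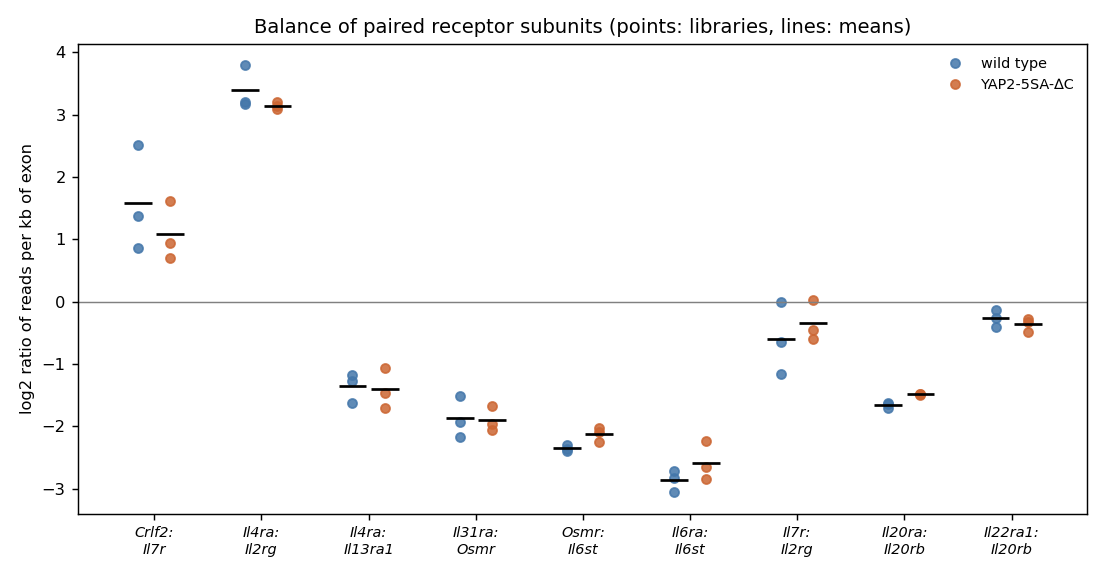
Log2 ratio of reads per kb of exon (vertical axis) for 9 pairs of subunits that form 1 receptor, with a point for each library (wild type in blue, YAP2-5SA-∆C in orange) and black lines for group means. The groups are separate only for *Osmr* to *Il6st* and *Il20ra* to *Il20rb*, by 0.23 and 0.18.

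A list of 20 cytokines held ligands of these receptors and of related ones, among them *Il5*, *Il25* and *Il33*, which bind none of the 9 chains. Of the 20, 16 had at least 1 count in the series and 5 passed the count filter. *Il4*, a defining type 2 cytokine, had 4, 3 and 2 counts in wild type and 4, 4 and 8 counts in transgenic replicates 1 to 3. *Il13* had 1, 2 and 0 counts and 2, 2 and 3 counts. *Il5*, which drives eosinophils, had 0 counts in every wild type library and 0, 2 and 1 counts in transgenic libraries, while *Il9*, *Il31*, *Il21* and *Il22* have no row among the genes with a count. All were below the count filter and were not tested, and 3 counts, the upper limit that a count of 0 allows, correspond to 0.157 to 0.285 CPM in wild type libraries, which covers counting error only.

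Among the 5 ligands tested, *Il33*, an alarmin stored in the nuclei of epithelial cells, rose in transgenic skin. *Il33* (ENSMUSG00000024810, chromosome 19 from 29925114 to 29960718) had 17.8, 15.7 and 22.0 CPM in wild type and 64.9, 49.8 and 63.9 CPM in transgenic replicates 1 to 3, which gave a log2 fold change of 1.69 (SE 0.15) and an FDR of 0.0194. Every transgenic library had more *Il33* than any wild type library, and the call was kept without wild type replicate 1, transgenic replicate 1 or transgenic replicate 2. The other tested ligands, *Il15*, *Clcf1*, *Il7* and *Lif*, did not pass, and the median of the 5 was 0.43. *Il24*, a ligand of the IL-20 receptors that was below the filter and is named after its values were seen, had 0 counts in all wild type libraries and 12, 9 and 39 counts in transgenic replicates 1 to 3, at least 5.98-fold higher against a floor of 3 counts per wild type library. Replicate 3 set much of this bound, which was 2.96-fold without it, an alternative added after the data were seen. In a fit with no count filter, *Il24* had an FDR of 0.0732. *Il6* and *Osm*, the ligands of IL6RA and OSMR, also named after their values were seen, had 0 to 3 and 0 to 7 counts in wild type and 6 to 22 and 5 to 26 counts in transgenic libraries, with the highest counts in replicate 3. *Il19*, another ligand of the IL-20 receptors, had 4 to 7 counts in wild type and 6 to 45 counts in transgenic libraries. The groups overlapped for *Osm* and *Il19*, and with no count filter the FDR was 0.0915 for *Il6*, 0.169 for *Osm* and 0.218 for *Il19*.

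Of 22 further receptor chains of the same families, 19 were tested and 4 rose, against 1.44% of all genes. The median log2 fold change over the 19 was 0.45. *Il13ra2*, a receptor for IL-13 regarded as a decoy, was at 1.41 ± 0.196 CPM in wild type skin, against 3.95 ± 1.21 CPM in transgenic skin (SD, n = 3 each), and its log2 fold change was 1.48 (SE 0.27, FDR of 0.0468). Its call was not made by voom (FDR of 0.0610), which called 3 genes of the list. *Il1rl1*, which encodes the receptor for IL-33, rose from 4.80 ± 0.258 to 8.74 ± 1.08 CPM, a log2 fold change of 0.87 (SE 0.13, FDR of 0.0398). The beta chains *Csf2rb* and *Csf2rb2*, of which the first is shared by the receptors for IL-3, IL-5 and GM-CSF, rose by 0.79 and 1.11 on the log2 scale (FDR of 0.0375 and 0.0260). These neighbouring genes on chromosome 15 are near-identical copies, so the division of reads between them is uncertain. At an unadjusted p under 0.05, 14 of the 19 were higher and 1, *Il11ra1*, was lower. The list had 2 calls without transgenic replicate 1 and 1 without wild type replicate 1.

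Of 20 tested JAK, STAT and feedback genes downstream of the receptors 2 rose, against 1.44% of all genes. Among them was *Ptpn6*, a phosphatase of blood cells that restrains cytokine signalling (log2 fold change 0.48, SE 0.08, FDR of 0.0442). *Stat6*, the factor of IL-4 and IL-13 signalling, was at 78.9 ± 2.88 CPM in wild type and at 96.5 ± 5.81 CPM in transgenic skin (SD, n = 3 each), and *Stat3*, that of IL-6 and oncostatin M, had 123 ± 7.07 and 176 ± 24.4 CPM. Neither passed, with FDRs of 0.0619 and 0.0541. Over the 20 genes the median log2 fold change was 0.33, and 10 were higher and 1 lower at an unadjusted p under 0.05. Of 16 tested genes known to respond to type 2 cytokines, 1 rose (1.44% of all genes did). It was the mannose receptor of macrophages *Mrc1*, which rose by 0.54 on the log2 scale (SE 0.07, FDR of 0.0341). *Mrc1* is also 1 of the 6 macrophage markers used below, and its call and that of *Ptpn6* were also lost without wild type replicate 1, and that of *Ptpn6* without transgenic replicate 1. The other genes of that list did not pass. Over the 16, 14 estimates were positive and 2 negative with a median of 0.36, the groups were apart for 7 toward higher and for 1 toward lower values (15.5% and 18.2% of all genes tested), and 8 were higher and 1 lower at an unadjusted p under 0.05 (13.3% and 13% of all).

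Possible controls of *Tslp* in keratinocytes were drawn up from vitamin D and retinoid receptors, protease and calcium signals, NF-kB and Notch. Of 23 tested, 2 fell (against 0.464% of all genes), and the median log2 fold change was 0.24. *Notch1*, a receptor of keratinocyte differentiation, had 336, 323 and 319 CPM in wild type and 242, 228 and 254 CPM in transgenic replicates 1 to 3, so that the groups were well apart, and it fell by 0.44 on the log2 scale (SE 0.06, FDR of 0.0398). *Map3k5*, a stress kinase, fell by 0.44 (SE 0.07, FDR of 0.0437), and both calls were also lost without wild type replicate 1 or transgenic replicate 1. With all 6 libraries, 0 genes of that list rose past the FDR threshold in the quasi-likelihood test of edgeR or with voom, 12 were higher and 3 lower at an unadjusted p under 0.05, and the likelihood-ratio test and DESeq2 each called 3 higher. Without transgenic replicate 2 the quasi-likelihood test called 3 genes, *Notch1* and *Map3k5* lower and, named after its values were seen, the epidermal protease gene *Klk5* higher (log2 fold change 0.41, FDR of 0.0256). *Vdr*, the vitamin D receptor, was at 157 ± 14.7 CPM in wild type and 128 ± 14.8 CPM in transgenic skin (SD, n = 3 each, FDR of 0.137).

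Markers of leukocytes and basal keratinocytes were also higher in sum in transgenic skin. The share of all genes called higher, to be set beside the counts of markers here, was 1.44%. Of 4 leukocyte markers, 3 rose, and their sum was 74.6 to 86.6 CPM in wild type and 124 to 135 CPM in transgenic skin. *Ptprc* (CD45) changed by 0.65 on the log2 scale (SE 0.09, FDR of 0.0340). Of 6 basal keratinocyte markers 1 rose, *Krt14*, by 0.95 on the log2 scale, and their sum was 3538 to 4277 CPM in wild type and 5824 to 7419 CPM in transgenic skin. The median log2 fold change over the tested markers was 0.64 for leukocytes, 0.56 for basal keratinocytes, 0.56 for suprabasal keratinocytes, 0.56 for mast cells, 0.54 for type 2 innate lymphoid cells, 0.53 for dendritic and Langerhans cells, 0.46 for macrophages, 0.33 for T cells, 0.26 for endothelium, 0.25 for fibroblasts, 1.17 for the 2 neutrophil markers tested, -0.07 for adipocytes and -1.12 for skeletal muscle, in which 0 of 3 estimates were positive. Of 8 dendritic and Langerhans cell markers tested, 2 rose (317 to 362 against 417 to 490 CPM over 9 genes), of 6 macrophage markers 2 (348 to 396 against 472 to 528 CPM), of 5 mast cell markers 1 (154 to 173 against 197 to 248 CPM over 6 genes), and of 5 tested markers of type 2 innate lymphoid cells 2, *Il1rl1* and *Icos* (342 to 402 against 456 to 636 CPM over 6 genes). With voom, *Icos* (FDR of 0.0568) and the mast cell gene *Cma1* (FDR of 0.0541) were not called. *Il1rl1* is also 1 of the receptor chains called above. In these same lists the log2 estimate was negative for *Xcr1* (dendritic, -0.24), *Mertk* (macrophage, -0.16), *Kit* (mast cell, -0.20) and *Areg* (innate lymphoid, -0.25). *Klrg1*, of the innate lymphoid list, was below the count filter. Most of the sum for type 2 innate lymphoid cells was *Rora* (a mean of 265 CPM in wild type and 384 CPM in transgenic skin) and *Gata3* (103 and 121 CPM), which other skin cells also express. Hair follicle markers had sums of 6448, 7935 and 7718 CPM in wild type and 3586, 757 and 4098 CPM in transgenic replicates 1 to 3. These sums do not overlap and were mostly *Krt71* and *Krt25* (3995 and 2887 CPM on average in wild type), while the groups overlapped for *Lgr5* (log2 fold change -0.28) and *Sox9* (-0.18). The median log2 fold change was -1.37 over the 5 genes, 0 of which passed by the quasi-likelihood test, voom or DESeq2, while 3 were lower by the likelihood-ratio test, 3 at an unadjusted p under 0.05, and 3 (*Krt25*, *Krt31* and *Krt71*) by the quasi-likelihood test without transgenic replicate 2. T cell markers summed to 9.58 to 10.9 CPM in wild type and 10.8 to 14.7 CPM in transgenic skin, and of the 4 tested, 0 passed by edgeR, voom or DESeq2 and 0 had an unadjusted p under 0.05. Suprabasal keratinocyte markers summed to 3864 to 4737 CPM in wild type and 5057 to 9345 CPM in transgenic skin, and were highest in transgenic replicate 2. Of the 5 suprabasal markers tested 0 passed by edgeR's quasi-likelihood test or voom , 2 were higher at an unadjusted p under 0.05, DESeq2 called 2, and *Krt10*, *Lor* and *Ivl* overlapped between the groups. Transgenic replicate 2 was also the highest in the sums for basal keratinocytes, type 2 innate lymphoid, dendritic and mast cells, macrophages and fibroblasts, and for *Il13ra1*, *Osmr*, *Il6ra*, *Il31ra*, *Il7r* and *Il20rb*. Endothelial markers summed to 78.2 to 85.8 CPM in wild type and 89.1 to 111 CPM in transgenic skin, while fibroblast (4839 to 7138 and 6139 to 8421 CPM), neutrophil (7.38 to 39.1 and 16.8 to 59.0 CPM) and adipocyte sums (524 to 742 and 450 to 770 CPM) overlapped. The 2 neutrophil markers tested were *S100a8* and *S100a9*. With 1 library left out, their log2 estimates ran from 0.47 to 1.87 and from 0.99 to 2.99. *Mpo* and *Elane* were below the count filter and at 0 in at least 1 library. Markers of basophils, eosinophils, B cells and sensory neurons each summed to at most 3.06 CPM in any library, with *Prss34*, *Epx*, *Prg2*, *Cd79a*, *Ms4a1*, *Scn10a* and *Scn9a* at 0 in at least 1 library. The part of these cell types in the differences of the 10 genes was not tested.

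Set against 1 marker of each compartment, the differences depended on the marker. Per *Ptprc* count, the log2 difference between YAP2-5SA-∆C and wild type skin ran from -0.15 for *Il31ra* to 0.46 for *Il7r* over the 10 genes, with a median of -0.04, and the groups overlapped for all 10, while 77.8% of all genes tested were lower in every transgenic library on this scale. The value of *Il7r* was 0.06 without wild type replicate 2. Per *Krt5* count it ran from -0.21 to 0.41 (*Il7r*, 0.08 without wild type replicate 2), with a median of -0.10, and the groups overlapped for 9 genes. *Il31ra* per *Krt5* count was lower in every transgenic library than in any wild type library, as were 71.1% of all genes tested, with a difference of -0.21 (SE 0.08, two-sided exact permutation p = 0.1). After Benjamini-Hochberg adjustment over the 20 ratios every exact permutation p was 1.0. The standard errors of these differences were 0.08 to 0.46, so these p-values do not show that the ratios were equal. With the other markers of both lists in their place, added after the data were seen, the median over the 10 genes was -0.34 per *Cd52*, -0.01 per *Coro1a* and 0.01 per *Laptm5* count, and it was -0.33 per *Krt14*, 0.09 per *Krt15*, 0.06 per *Itga6*, 0.08 per *Col17a1* and 0.53 per *Trp63* count. Per *Trp63*, a transcription factor of basal keratinocytes, the groups were apart toward higher values for 7 of the 10 genes and for 10.3% of all genes tested, whereas per *Krt14* they were apart toward lower values for 2 of the 10 and for 89.9% of all genes, and *Trp63* itself had a log2 fold change of 0.09 (FDR of 0.459 in the quasi-likelihood test).

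**Figure D5:**
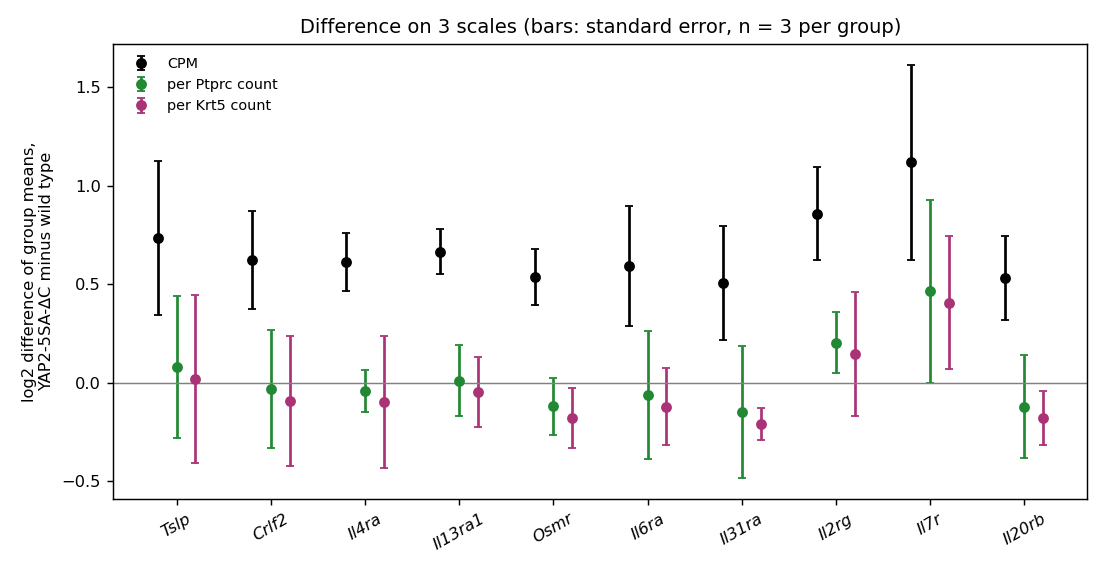
Difference of group means on the log2 scale, YAP2-5SA-∆C minus wild type (vertical axis), for the 10 genes as CPM (black), per *Ptprc* count (green) and per *Krt5* count (purple), with bars of 1 standard error (n = 3 per group). The CPM differences all lie above 0, whereas the ratios lie around 0, from -0.21 to 0.46.

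The tested genes whose pattern over the 6 libraries was most like that of *Tslp* were *Kcns3* (Pearson r of 0.986 on log2 CPM), *Tango6* (0.983), *Erp44* (0.981), *Sept4* (0.981) and *Ap1s1* (0.980). These correlations describe 6 libraries that differ in genotype and depth, and *Tslp* rests on few reads. None of the 5 passed the quasi-likelihood test, with log2 fold changes of 0.10 to 0.61. The highest library of all 5, as of *Tslp*, was transgenic replicate 3.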

How the data were processed

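The 6 libraries were analysed from the authors' deposited matrix of raw counts per Ensembl gene. As described by the authors, paired-end reads were mapped to GRCm38 with TopHat2 and Bowtie2, and reads that mapped uniquely were counted with HTSeq-count. The annotation release and strand setting are not given in the sources used here. The paper names mRNA libraries and the labels a kit for total RNA. Annotated genes that overlap *Tslp*, *Il4ra*, *Il6ra*, *Il31ra* or *Il2rg* hold 1 count in all. Of these, *Gm20489* over *Il2rg* and *Gm3226* over *Il31ra* lie on the same strand and have no row in the matrix. Reads that fall in 2 genes may have gone uncounted, so *Il2rg* and *Il31ra* may be counted too low, which was not tested.

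Genes that reached 1 CPM in 3 or more libraries were scaled with TMM and tested with the quasi-likelihood test of edgeR 4.0.16 (R 4.3.3), genotype as the only term, with Benjamini-Hochberg adjustment over all 15102 genes (FDR). The 10 genes and the lists were chosen with earlier results of these data known. The text names all 10, the genes of each of the 5 pathway lists with an FDR below 0.05 (at most 5 in each direction) except those not reported here by name, the 5 genes most correlated with *Tslp*, and further genes given as values only. Cell type marker lists are given as counts and sums. Alternatives tried were scaling by RLE or upper quartiles, leaving off the count filter or asking for 10 counts in each library, the likelihood-ratio test that the paper used, voom (limma 3.58.1), DESeq2 1.42.0, replicate number as a block, dropping 1 library at a time and, added after the data were seen, other markers for the ratios. Tested on simulated data of 14963 genes with a log2 change of 1 given to 200, the quasi-likelihood test found 79.0% of these (7.06% of its calls were false) and the likelihood-ratio test found 89.0% (22.9% false). The median estimate of the 10 genes was smaller, 0.62, and changes of that size were not simulated, so these shares do not apply to them. P-values measure the spread between mice. Gene positions and exon lengths are those of GENCODE M21 on GRCm38, which lacks 558 of the matrix's identifiers.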

Additional observations from a re-analysis of the deposited data

How the results depend on the processing

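The log2 fold changes of the 10 genes stayed above 0 in all 139 alternatives, of which 6 lost and 14 gained a call, and all 203 alternatives for the ratios gave no call, which 3 libraries against 3 cannot reach. Calls by edgeR's quasi-likelihood test were 288 among all genes, 1 among the 10 genes, 1 among ligands, 4 among receptor partners, 1 among type 2 response genes, 2 among possible controls of *Tslp* and 2 among JAK-STAT genes. In the same order, the likelihood-ratio test called 1568, 6, 1, 7, 5, 5 and 4, and DESeq2 called 1583, 6, 1, 9, 5, 5 and 8. With no count filter 497 genes were called in all, 3 of the 10 and 2 of the type 2 response genes, and with upper-quartile scaling 416 of 15102 genes in all, 2 of the 10 and 4 JAK-STAT genes. Over the fits that drop 1 library, the counts ranged from 0 to 816 for all genes, 0 to 2 for the 10, 0 to 1 for ligands, 0 to 5 for receptor partners, 0 to 3 for type 2 response genes, 0 to 3 for possible controls of *Tslp* and 0 to 4 for JAK-STAT genes. The quasi-likelihood test called 0 genes in all without wild type replicate 2 or 3 or transgenic replicate 3, whereas an unadjusted p under 0.05 was found for 2725, 2844 and 3692 genes. It called 142 genes without wild type replicate 1 and 86 without transgenic replicate 1. With a replicate block it called 0 genes, and 0 in every list, where 2949 genes had an unadjusted p under 0.05, 6 of the 10 among them. Libraries of the same number did not deviate together (r of -0.33, -0.23 and -0.05), and those of different number had r of -0.07 to 0.27. Whether libraries of the same number share a litter or batch was not tested. The cause of these shifts was not tested. *Tslp* and *Crlf2* had 9 to 83 counts per library. Among alternatives added after the data were seen, the median of the 10 ratios moved from -0.10 per *Krt5* to -0.33 per *Krt14* and 0.53 per *Trp63* count.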
